A study of Mus musculus with 10 samples.

Results

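The genes described here make, break down and read cyclic AMP (cAMP) in brown fat, and they were chosen by name from the parts list of this pathway. They comprise 5 adenylate cyclases (Adcy3, Adcy4, Adcy5, Adcy6 and Adcy9), 3 phosphodiesterases (Pde3b, Pde4b and Pde4d) and 2 subunits of protein kinase A (PKA), Prkaca and Prkar2b. All 10 were found, 1 record each, among the 54347 gene records of the count table. Polyadenylated RNA had been sequenced from interscapular brown adipose tissue (iBAT) of 10 mice whose background was C57BL/6N. Of these, 5 were ΔGm15551, carrying a germline deletion made with CRISPR/Cas9 that removes exon 1 of Gm15551, a long noncoding RNA gene, from all cells of the body, and 5 were wild type, described in the series as littermates without saying which mice shared a litter. All 10 mice were 12 weeks old, ate chow and were housed singly at 4 °C for 24 h before dissection. The deletion line was backcrossed to wild type for 2 generations, and no group was kept warm, so the cold itself has no comparison here.

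In brown fat, noradrenaline released in the cold binds β-adrenergic receptors, whose stimulatory G protein switches on adenylate cyclases at the plasma membrane. The cAMP they make binds the regulatory subunits of PKA and frees the catalytic subunits, which phosphorylate lipid droplet proteins and transcription factors and so start lipolysis and transcription of thermogenic genes. Phosphodiesterases hydrolyse cAMP and end the signal. The comparison of genotypes asks whether loss of Gm15551 altered the RNA of this machinery in cold-activated tissue.

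Transcription factors of the CREB family, which PKA phosphorylates, bind the cAMP response element TGACGTCA or its half-site TGACG. RefSeq promoter windows (250 bases before to 50 bases after a start, GRCm38.p6) were matched for 8 of the 10 genes, with 14 windows in all and none for Adcy6 and Pde3b. The full element was in 0 of the 14 windows, read on both strands, and in 1.79% of 32851 windows of the same 300 bases over all genes. The half-site, which also lies within the full element, was in 3 of the 14 and in 20.81% of all windows. The windows that hold it belong to Prkaca, Pde4b and Adcy9 and are printed here with 1 window of Prkar2b, the gene of the 10 whose level moved most closely with that of Prkaca. Each runs 5′ to 3′ along the strand of its gene, and capitals mark the half-site (TGACG, or CGTCA where it lies on the opposite strand). In the Prkaca window the half-sites open 120 and 6 bases before the RefSeq start, which lies upstream of the GENCODE M21 start of the gene (83972993), in that of Pde4b 34 and in that of Adcy9 24 bases before it. A match is a description of the letters and not a measured binding site.
Prkaca, chr8:83972728-83973027, plus strand: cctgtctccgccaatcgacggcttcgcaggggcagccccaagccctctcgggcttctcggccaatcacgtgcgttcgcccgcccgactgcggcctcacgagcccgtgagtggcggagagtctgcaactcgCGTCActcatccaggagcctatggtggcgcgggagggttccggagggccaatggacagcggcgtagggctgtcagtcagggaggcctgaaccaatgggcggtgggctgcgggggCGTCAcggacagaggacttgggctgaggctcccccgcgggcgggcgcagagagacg
Pde4b, chr4:102421305-102421604, plus strand: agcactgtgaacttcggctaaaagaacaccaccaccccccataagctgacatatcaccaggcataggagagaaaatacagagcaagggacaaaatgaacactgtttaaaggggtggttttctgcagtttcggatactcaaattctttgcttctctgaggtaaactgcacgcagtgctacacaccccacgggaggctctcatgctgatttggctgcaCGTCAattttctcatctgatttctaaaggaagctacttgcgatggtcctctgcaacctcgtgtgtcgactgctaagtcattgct
Adcy9, chr16:4420449-4420748, minus strand: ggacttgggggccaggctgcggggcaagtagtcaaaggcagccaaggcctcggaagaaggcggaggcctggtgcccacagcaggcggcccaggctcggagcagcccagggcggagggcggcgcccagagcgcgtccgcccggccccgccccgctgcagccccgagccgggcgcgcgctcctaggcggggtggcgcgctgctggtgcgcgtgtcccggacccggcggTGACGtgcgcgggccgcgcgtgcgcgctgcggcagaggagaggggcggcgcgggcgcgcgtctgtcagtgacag
Prkar2b, chr12:32061228-32061527, minus strand: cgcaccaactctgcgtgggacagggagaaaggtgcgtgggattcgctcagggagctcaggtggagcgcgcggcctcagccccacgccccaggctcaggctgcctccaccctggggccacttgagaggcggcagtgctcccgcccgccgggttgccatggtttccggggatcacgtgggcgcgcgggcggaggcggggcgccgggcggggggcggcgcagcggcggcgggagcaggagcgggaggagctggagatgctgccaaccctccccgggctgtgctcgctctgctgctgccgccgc

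The libraries held 9680976 to 15771170 estimated counts each, with wild type replicate 7 the shallowest. All 5 ΔGm15551 mice had 0 counts of Gm15551, and the wild type mice had between 0 and 7. Wild type replicate 7, at 0, could not be told from the deletion by this gene. The mouse numbers of wild type replicates 5, 6 and 7 form a separate, higher series, which no ΔGm15551 mouse shares, so that series and genotype cannot be told apart for these 3. All 8 brown adipocyte markers and all 6 common adipocyte markers were counted in every mouse. The summed level of 10 skeletal muscle markers ran from 1.28 to 3108 CPM, with the highest values in wild type replicate 7 (3108 CPM) and ΔGm15551 replicate 4 (1938 CPM). In a bulk tissue, fewer cells of a type and less RNA per cell cannot be told apart.

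Levels are given as CPM, counts scaled to a common library total after TMM normalisation, and log2FC is ΔGm15551 over wild type, from edgeR's quasi-likelihood test with Benjamini-Hochberg adjustment over all 13732 genes tested. All 10 genes passed the filter on low counts. Of them, 0 differed between the genotypes at an adjusted p under 0.05, as did 0% of all genes tested. At an unadjusted p under 0.05 there were again 0 of the 10, against 1.59% of all genes tested, and 0 of the 10 separated the groups with no overlap between mice, against 0.32%. The log2FC was above 0 for 7 and below 0 for 3, with a median of 0.055 against -0.00092 over all genes tested and a largest absolute value of 0.22. For all 10 the 95% interval lay within a 2-fold change in either direction, as it did for 12392 of the 13732 genes.

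**Figure D1:**
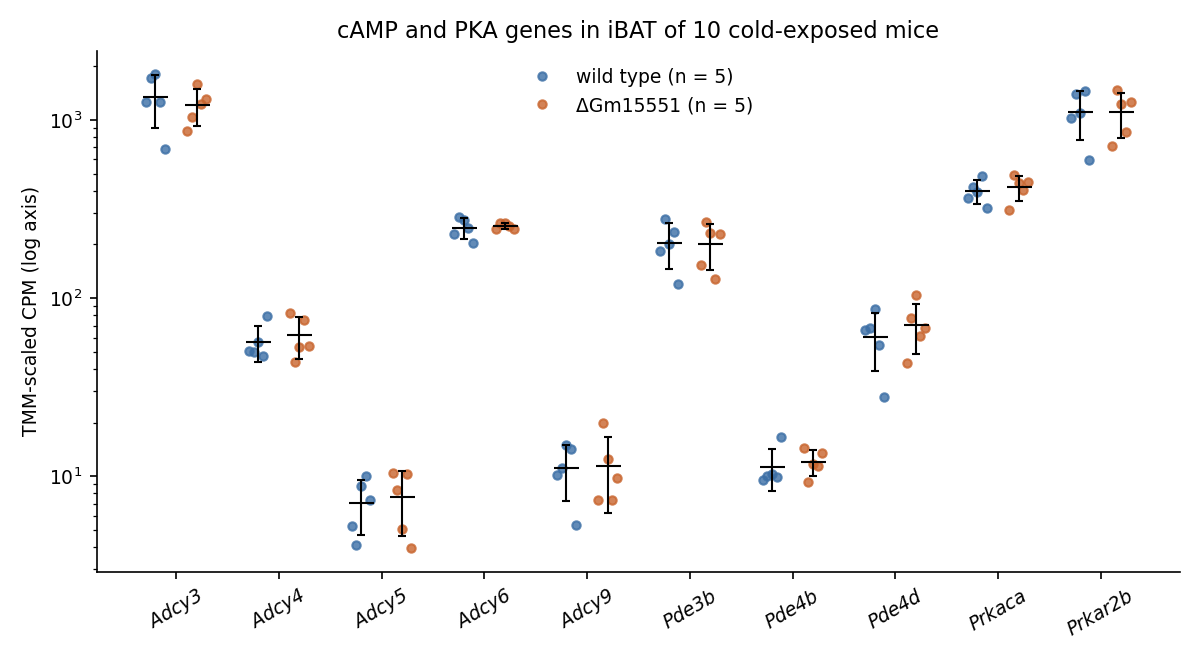
TMM-scaled CPM (log axis) of the 10 genes in each mouse, wild type in blue and ΔGm15551 in orange (n = 5 each), with the mean as a black dash and the SD as bars. The groups overlap for every gene, and the lowest wild type point of Adcy3, Adcy6, Adcy9, Pde3b, Pde4d, Prkaca and Prkar2b is replicate 7.

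Adenylate cyclases convert ATP to cAMP. Adcy3 is a membrane cyclase long known to rise in brown fat with adrenergic stimulation, and it was by far the most abundant cyclase in these mice. Its level was 1255, 1716, 1799, 1253 and 684 CPM in wild type replicates 2, 3, 5, 6 and 7, and 866, 1032, 1599, 1228 and 1308 CPM in ΔGm15551 replicates 1, 2, 4, 5 and 7. Wild type replicate 7 was lowest and wild type replicate 5 highest, and all 5 ΔGm15551 mice fell inside that range. The log2FC was -0.15 (SE 0.24, 95% interval -0.67 to 0.36, edgeR unadjusted p = 0.535, adjusted p = 0.9997), and it was -0.32 without wild type replicate 7. Adcy3 (ENSMUSG00000020654.15) lies on the plus strand of chromosome 12 from 4133103 to 4213525 of GRCm38, with exons that overlap those of Cenpo on the other strand. Of its 31-base words 20.09% occur in another gene record. Use of strand is not stated, so some of its counts are uncertain, and their share was not measured. Cenpo had 89 to 273 counts per mouse where Adcy3 had 6673 to 25212.

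Adcy6, a cyclase inhibited by calcium, was the steadiest of the genes. It was at 229, 285, 273, 247 and 204 CPM in wild type replicates 2, 3, 5, 6 and 7 and at 243, 264, 263, 255 and 243 CPM in ΔGm15551 replicates 1, 2, 4, 5 and 7. The ΔGm15551 mice lay within 243 to 264 CPM, inside the wild type range. The log2FC was 0.035 (SE 0.11, 95% interval -0.21 to 0.28, edgeR adjusted p = 0.9997), the narrowest interval of the 10. Of the 31-base words of Adcy6 8.28% are shared, mainly with Gm29331 on the other strand, which had 40 to 85 counts per mouse.

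Adcy4, a cyclase stimulated by G protein βγ subunits, was at 50.3, 49.99, 56.8, 47.1 and 79.1 CPM in wild type replicates 2, 3, 5, 6 and 7 and at 82.4, 43.7, 53.4, 75.2 and 53.9 CPM in ΔGm15551 replicates 1, 2, 4, 5 and 7. Both groups held mice near 50 and mice near 80 CPM, with 3 mice high (wild type replicate 7, ΔGm15551 replicates 1 and 5) and the other 7 at or below 56.8 CPM. The log2FC was 0.12 (SE 0.19, 95% interval -0.28 to 0.53, edgeR adjusted p = 0.9997).

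Adcy9 and Adcy5 were low. Adcy9, a widely expressed cyclase that is hardly sensitive to forskolin, was at 10.1, 11.1, 15.1, 14.2 and 5.33 CPM in wild type and at 7.39, 19.9, 12.5, 7.34 and 9.82 CPM in ΔGm15551, replicates in the order above. Adcy5, a close relative of Adcy6, was at 5.27, 4.10, 8.78, 10.1 and 7.38 CPM in wild type and at 10.5, 8.36, 5.05, 10.3 and 3.94 CPM in ΔGm15551. For both genes the mice of a group differed more than 2-fold among themselves and the groups overlapped. The log2FC was 0.022 for Adcy9 (SE 0.31, 95% interval -0.64 to 0.68) and 0.093 for Adcy5 (SE 0.30, 95% interval -0.55 to 0.74), both with an edgeR adjusted p of 0.9997. With wild type replicates 5, 6 and 7 left out the log2FC of Adcy5 was 0.71 (95% interval -0.15 to 1.57, edgeR adjusted p = 0.9988).

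Phosphodiesterases end the cAMP signal. Pde3b, the enzyme through which insulin lowers cAMP in adipocytes, was at 184, 279, 201, 234 and 121 CPM in wild type replicates 2, 3, 5, 6 and 7 and at 153, 268, 232, 128 and 230 CPM in ΔGm15551 replicates 1, 2, 4, 5 and 7. Low and high mice occurred in both groups, with wild type replicate 7 and ΔGm15551 replicate 5 lowest. The log2FC was -0.011 (SE 0.23, 95% interval -0.52 to 0.50, edgeR adjusted p = 0.9997). The sign of so small an estimate changed with the setting.

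Pde4d, a cAMP-specific enzyme with many isoforms, was at 66.3, 68.3, 86.8, 54.2 and 27.9 CPM in wild type and at 43.0, 77.3, 103.7, 61.4 and 67.8 CPM in ΔGm15551, replicates in the same order. The lowest mouse was wild type replicate 7 and the highest ΔGm15551 replicate 4, a 3.72-fold range over the 10 mice. Its log2FC of 0.22 (SE 0.27, 95% interval -0.38 to 0.81, edgeR unadjusted p = 0.441, adjusted p = 0.9997) was the largest of the 10, and it was 0.036 without wild type replicate 7.

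Pde4b, another cAMP-specific enzyme of the same family, was at 9.56, 9.997, 10.3, 9.87 and 16.6 CPM in wild type and at 14.3, 9.29, 11.7, 11.4 and 13.5 CPM in ΔGm15551. Wild type replicate 7, the lowest mouse for Pde4d, was the highest for Pde4b, while the other 4 wild type mice lay within 9.56 to 10.3 CPM. The log2FC was 0.10 (SE 0.17, 95% interval -0.27 to 0.47, edgeR adjusted p = 0.9997), and 0.28 without wild type replicate 7. Pde4b has 13 annotated transcripts and Pde4d has 20, and the table sums them, so isoforms of these genes were not compared.

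PKA is a tetramer of regulatory and catalytic subunits. Prkar2b encodes the type II regulatory subunit typical of fat and brain, and Prkaca the main catalytic subunit. Prkar2b was at 1022, 1394, 1093, 1450 and 597 CPM in wild type replicates 2, 3, 5, 6 and 7 and at 712, 1479, 1221, 854 and 1255 CPM in ΔGm15551 replicates 1, 2, 4, 5 and 7. Wild type replicate 7 and ΔGm15551 replicate 1 were the lowest of their groups, and the groups overlapped almost wholly. The log2FC was -0.0093 (SE 0.25, 95% interval -0.54 to 0.52, edgeR adjusted p = 0.9997).

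Prkaca was at 366, 422, 392, 487 and 321 CPM in wild type and at 312, 490, 444, 402 and 446 CPM in ΔGm15551. The same 2 mice, wild type replicate 7 and ΔGm15551 replicate 1, were again lowest. The log2FC was 0.076 (SE 0.15, 95% interval -0.24 to 0.39, edgeR adjusted p = 0.9997). The pseudogene Prkaca-ps1, which accounts for most of the 2.97% of 31-base words that Prkaca shares, had 0 or 1 count per mouse.

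**Figure D2:**
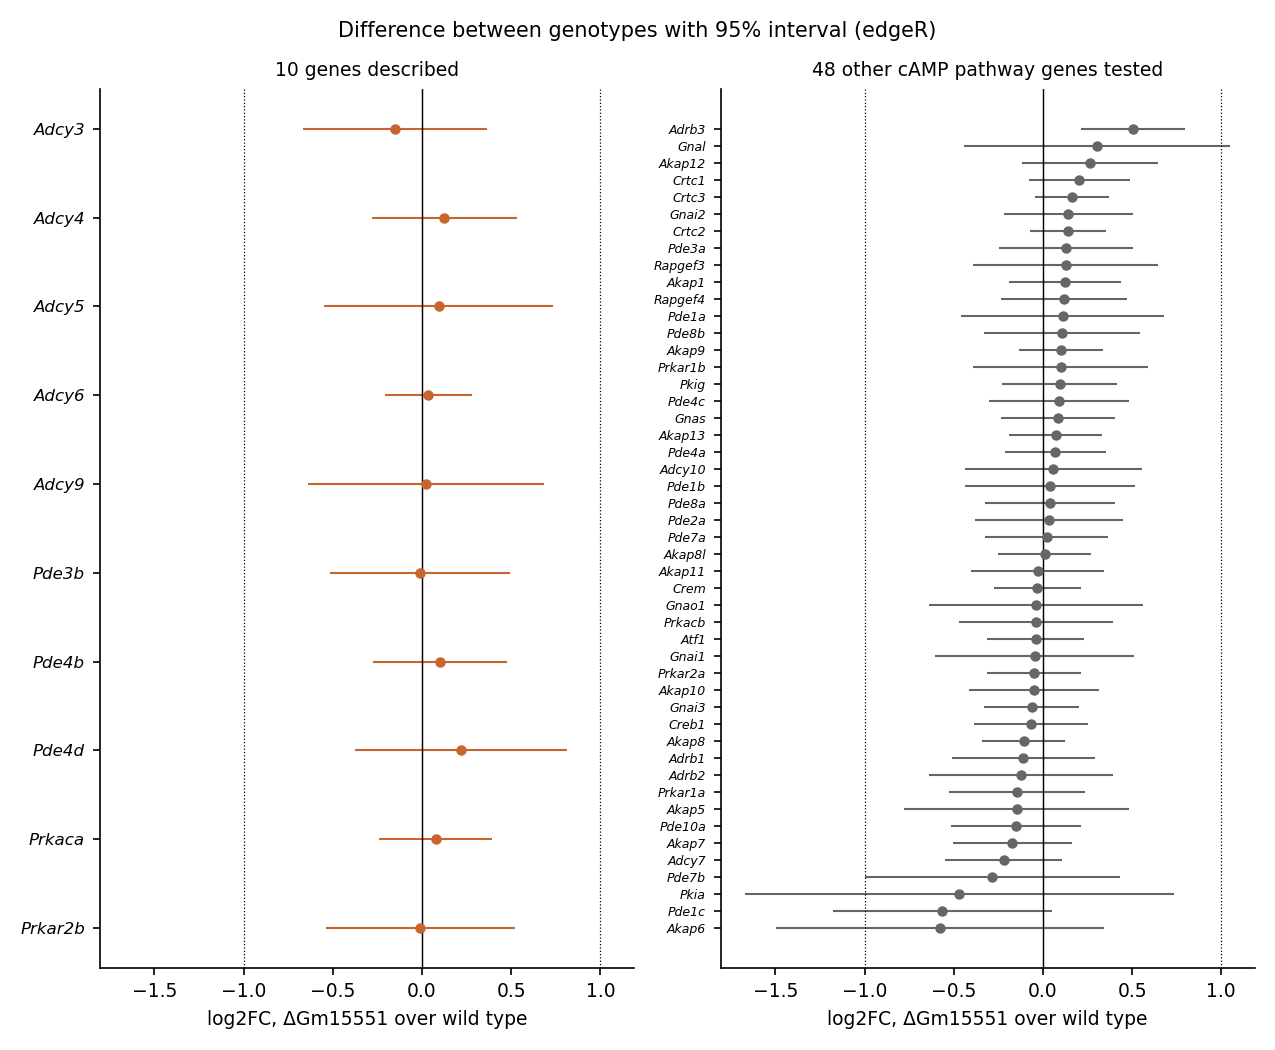
log2FC with 95% interval (edgeR) of the 10 genes on the left and of the 48 other cAMP pathway genes tested on the right, ordered by log2FC; dotted lines mark a 2-fold change. All 10 intervals on the left cross 0 and stay between the dotted lines, and on the right the interval of Adrb3 lies above 0.

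Levels of different genes were then compared per kb of merged exon length. Over the 10 mice the mean was 303 CPM per kb for Prkar2b, 204 for Adcy3 and 164 for Prkaca. It was 36.9 CPM per kb for Adcy6, 22.3 for Pde3b and 12.7 for Adcy4. The lowest were Pde4d (5.47 CPM per kb), Adcy9 (2.17), Pde4b (1.103) and Adcy5 (1.03). Neighbours in this order had overlapping ranges over the mice, other than Prkaca above Adcy6 and Adcy4 above Pde4d, where every value of the upper gene exceeded every value of the lower. With the mean transcript length in place of merged exons, Prkar2b (407 CPM per kb) and Adcy3 (396) were nearly equal, Pde4d (34.9) stood above Adcy4 (27.9) and Pde4b (5.87) above Adcy9 (2.43), so the order within the last 2 pairs depends on the length used. The mean of Prkar2b was above that of Adcy3 by either length, but by mean transcript length this held in 4 of the 10 mice only.

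As a share of the summed level per kb of its class, Adcy3 made up 77.7% ± 5.11 (SD, n = 10) of the 7 adenylate cyclases tested, followed by Adcy6 with 14.7% ± 2.54 and Adcy4 with 5.31% ± 2.51. The other cyclases, Adcy9, Adcy10, Adcy7 and Adcy5, each held below 1% on average. Among the 4 regulatory subunits Prkar2b held 79.3% ± 3.11 and Prkar1a, the type I subunit found in most tissues, 18.4% ± 2.50. Between the catalytic subunits Prkaca held 96.6% ± 0.511 and Prkacb 3.39%. A single gene therefore carried most of the RNA of each of these classes in every mouse, with at least 68.2% for Adcy3, 74.1% for Prkar2b and 95.8% for Prkaca. By mean transcript length the lowest shares were 64.3% for Adcy3, 57.8% for Prkar2b and 90.7% for Prkaca, and the mean shares of Prkar1a and Prkacb were 28.6% and 7.68%.

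The phosphodiesterases were more evenly spread. Pde3b held 26.5% ± 4.95 of the level of the 15 tested cAMP phosphodiesterases, Pde2a, which cGMP activates, 19.5% ± 5.78, Pde4a 16.7% ± 1.79 and Pde8a, known for its high affinity for cAMP, 13.5% ± 2.04. Pde4d held 6.47% ± 1.61 and Pde4b 1.38% ± 0.495. By mean transcript length Pde3b held 28.2% and Pde2a 17.95% of the class, and Pde4d (12.5%) stood above Pde4a (11.9%), Pde7b (9.94%) and Pde8a (9.56%), so the order after Pde2a depends on the length used. The ratio of summed regulatory to summed catalytic subunit RNA was 2.29 ± 0.386 in wild type (1.66 to 2.73) and 2.13 ± 0.249 in ΔGm15551 (1.76 to 2.35), a difference smaller than the spread between mice. RNA levels per kb are not protein amounts, and the ratio is not that of subunits in the holoenzyme.

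**Figure D3:**
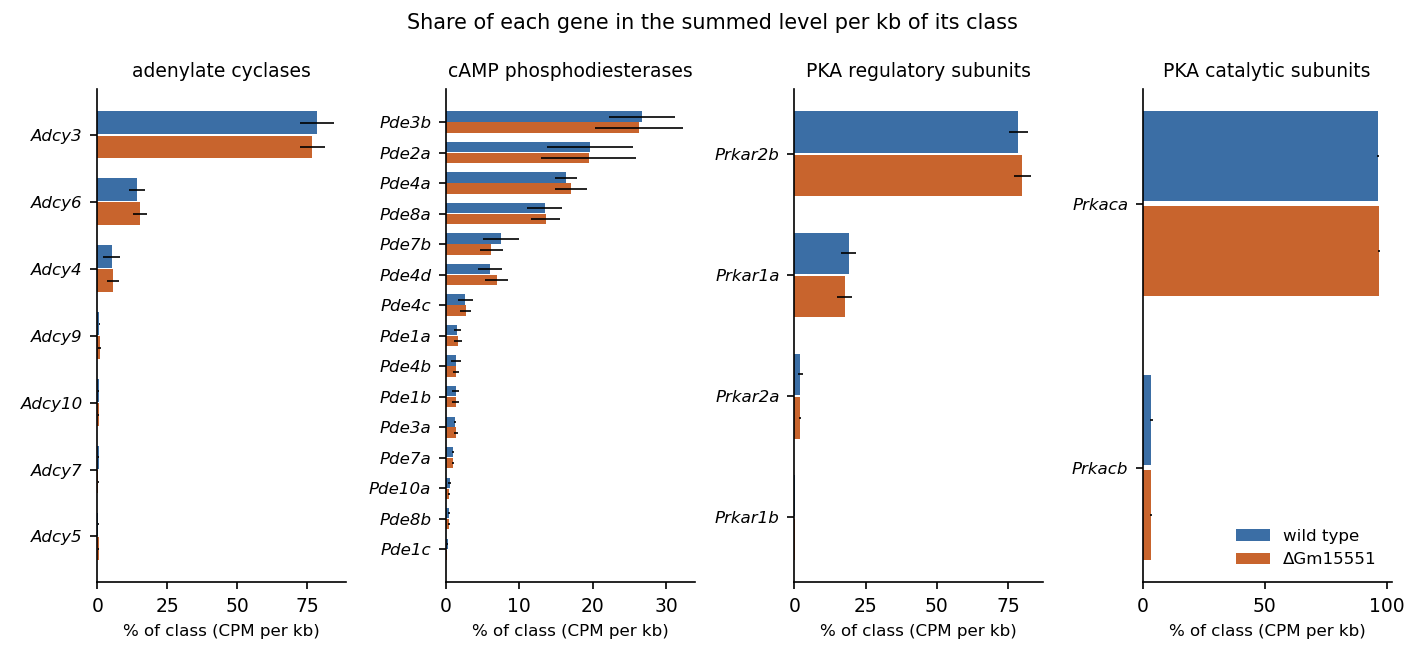
Share of each gene in the summed CPM per kb of its class, wild type in blue and ΔGm15551 in orange, as mean with SD (n = 5 each), for tested genes of 4 classes. Adcy3, Prkar2b and Prkaca each take most of their class in both genotypes, while Pde3b, Pde2a, Pde4a and Pde8a lead the phosphodiesterases by merged exon length.

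The mice of a group differed widely for most of these genes. The SD of log2 CPM between mice, with group means removed, was 0.59 for Adcy9, 0.57 for Adcy5, 0.55 for Pde4d, 0.48 for Prkar2b, 0.46 for Adcy3 and 0.45 for Pde3b, where the median of all genes tested was 0.27. These 6 ranked at percentiles of 82.8 to 92.1 among all genes tested, and of 94.3 to 98.4 among the 1000 genes nearest to each in mean level. Adcy4 (0.34), Pde4b (0.29) and Prkaca (0.24) were nearer the median, and Adcy6 (0.15) was at percentile 12.3. After a loess correction of each library for GC content and length of the genes the SD of Pde3b was 0.33 (percentile 68.6, below the 69.8 of Pde4b) and that of Adcy6 0.19 (percentile 32.5). Prkar2b was then at percentile 79.1, and the SD of the 8 genes other than Pde3b and Adcy6 moved by a smaller share.

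**Figure D4:**
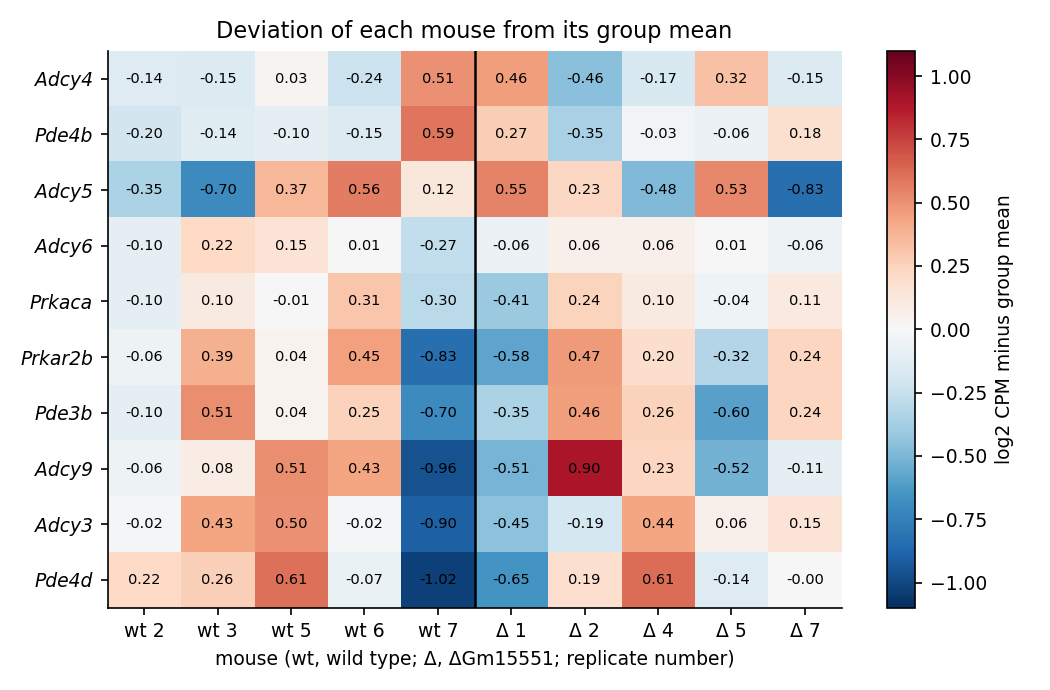
Deviation of log2 CPM of each mouse (wt, wild type; Δ, ΔGm15551; replicate number) from its group mean, for the 10 genes in rows, with red above and blue below the mean. In wild type replicate 7 and ΔGm15551 replicate 1, Prkaca, Prkar2b, Pde3b, Adcy9, Adcy3 and Pde4d are below the mean and Adcy4 and Pde4b above it.

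Part of this spread was shared between genes. Wild type replicate 7 was the lowest of the 10 mice in Adcy3, Adcy6, Adcy9, Pde3b, Pde4d and Prkar2b and the highest in Pde4b, and ΔGm15551 replicate 1 was the lowest in Prkaca and the highest in Adcy4 and Adcy5. Relations were computed over log2 CPM for all 45 pairs of the 10 genes, with 100000 permutations per pair. By both Pearson's r and Spearman's rho 5 pairs had an adjusted p under 0.05 over the 45, namely Prkar2b with Pde3b, Prkaca and Adcy4, and Adcy4 with Pde3b and Pde4b. By Pearson's r alone there were 18. Correlation was common over the whole table. Of all pairs among the 13732 genes tested, 8.92% had an absolute r at least as high as the weakest of the 18, and 1.71% an absolute r and rho at least as high as the weakest of the 5, where the 18 and the 5 were 40.0% and 11.1% of the 45 pairs. The pairs share genes and libraries, and these shares are a description with no test.

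Prkar2b correlated with Pde3b across the 10 mice (r = 0.94, rho = 0.94, permutation test, adjusted p = 0.00427 and 0.00765). Without the 2 mice farthest from the median of Pde3b r was 0.95, and in the 7 mice of the lower number series it was 0.93. Prkar2b likewise correlated with Prkaca (r = 0.92, rho = 0.92, permutation test, adjusted p = 0.00465 and 0.0110), with r = 0.78 without the 2 farthest mice and 0.88 in the lower number series. The higher series holds 3 wild type mice only and gives no value of its own. After correction for GC content and length r was 0.97 for both pairs.

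In Adcy4 the mice fell into 3 at 75.2 to 82.4 CPM and 7 at 43.7 to 56.8 CPM, so no r over all 10 is given for it, and the 3 high mice were also the 3 lowest in Prkar2b. Within the other 7 mice r was -0.69 for Adcy4 with Prkar2b (rho -0.75, exact permutation p = 0.0897 and 0.0663), -0.51 with Pde3b (rho -0.68, exact permutation p = 0.248 and 0.110) and 0.61 with Pde4b (rho 0.79, exact permutation p = 0.151 and 0.0480). Adjusted over the 5 pairs, the p-values of these 3 lay between 0.0800 and 0.248. The 7 mice were set apart by their Adcy4 values, which narrows its range. Without only the 2 mice farthest from the median of Adcy4 (wild type replicate 7 and ΔGm15551 replicate 1) r was -0.86 with Prkar2b, -0.86 with Pde3b and 0.50 with Pde4b, but these values still include ΔGm15551 replicate 5, which lies apart from the other 7. Within the same 7 mice r was 0.90 for Prkar2b with Pde3b (rho 0.86, exact permutation p = 0.00933 and 0.0238) and 0.89 with Prkaca (rho 0.89, exact permutation p = 0.00853 and 0.0123), which over the 5 pairs gave adjusted p of 0.0233 by r and 0.0595 by rho. The 5 pairs were picked over the 10 mice that include these 7, so p-values within the 7 are a description and no separate support.

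**Figure D5:**
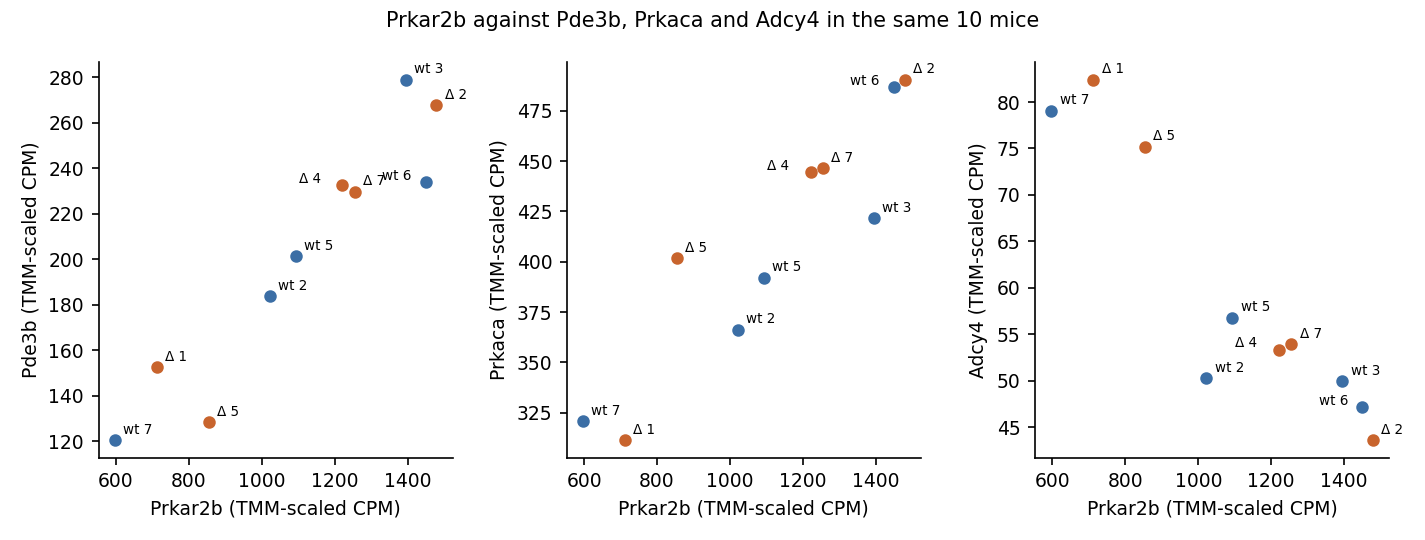
TMM-scaled CPM of Prkar2b (horizontal axis) against Pde3b, Prkaca and Adcy4 (vertical axes) in each of the 10 mice, wild type (wt) in blue and ΔGm15551 (Δ) in orange with replicate numbers. Pde3b and Prkaca rise with Prkar2b, while wild type replicate 7 and ΔGm15551 replicates 1 and 5 stand apart with high Adcy4 and low Prkar2b.

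Some marker lists moved with the same mice and others did not. The summed level of the 8 endothelial markers, all counted in every mouse, ran from 861 to 1550 CPM in wild type and from 923 to 1620 CPM in ΔGm15551, and its 3 highest values were those of ΔGm15551 replicate 1 (1620 CPM), wild type replicate 7 (1550 CPM) and ΔGm15551 replicate 5 (1363 CPM), the 3 mice high in Adcy4. The summed level of the 5 red blood cell markers, also all counted in every mouse, ran from 612 to 2538 CPM in wild type and from 932 to 1747 CPM in ΔGm15551 and was highest in the same 3 mice, with 2538 CPM in wild type replicate 7, 1747 CPM in ΔGm15551 replicate 1 and 1431 CPM in ΔGm15551 replicate 5. The brown adipocyte markers summed to 11326 CPM in wild type replicate 7 and 11276 CPM in ΔGm15551 replicate 1, against 13320 to 15399 CPM in the other 8 mice. Those 8 include ΔGm15551 replicate 5, at 14628 CPM, so this list did not follow all 3 mice. The Schwann cell and nerve markers, 3 of 6 counted in every mouse and Dbh at 0 in all, were low but also highest in the same 3 mice, with 89.0 CPM in ΔGm15551 replicate 5, 71.4 CPM in ΔGm15551 replicate 1 and 56.6 CPM in wild type replicate 7 against 6.10 to 45.2 CPM in the others. The common adipocyte markers did not set these mice apart, with 25454 to 30437 CPM over all 10. In 4 further lists some of these 3 mice were high, but not all 3. Macrophage markers were highest in wild type replicate 2 (80.6 CPM), followed by ΔGm15551 replicate 1 (74.1 CPM) and wild type replicate 7 (65.0 CPM). In ΔGm15551 replicate 5 they were at 45.3 CPM. Fibroblast and preadipocyte markers were also highest in wild type replicate 2 (410 CPM), followed by ΔGm15551 replicate 1 (356 CPM). They were at 241 CPM in ΔGm15551 replicate 5. Lymphocyte markers were highest in ΔGm15551 replicate 1 (7.91 CPM) and lowest in ΔGm15551 replicate 5 (3.83 CPM). Vascular smooth muscle and pericyte markers were highest in ΔGm15551 replicate 5 (674 CPM), followed by wild type replicate 7. In ΔGm15551 replicate 1 they stood at 527 CPM, under the wild type median of 547 CPM.

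The skeletal muscle markers, 3 of 10 counted in every mouse, summed to 3108 CPM in wild type replicate 7, 862 CPM in ΔGm15551 replicate 1 and 77.5 CPM in ΔGm15551 replicate 5. They did not follow the same 3 mice, since ΔGm15551 replicate 4 had 1938 CPM and wild type replicate 5 had 288 CPM. Gene length did, as the median deviation of the longest 20% of genes minus that of the shortest 20% was -0.27 on the log2 scale in wild type replicate 7, -0.15 in ΔGm15551 replicate 1 and -0.27 in ΔGm15551 replicate 5, and -0.032 to 0.24 in the other 7. For GC content the same contrast of the highest against the lowest 20% was farthest from 0 in ΔGm15551 replicate 5 (0.51) and wild type replicate 3 (-0.47). The part of these measures in the spread of the cAMP genes was not tested, other than by the correction for GC content and length given above.

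The genes whose pattern over the 10 mice was most like that of each gene were sought by Pearson's r with group means removed, in genes that averaged 10 CPM or more. For Pde3b they were Gk, Senp6 and Uba3, led by Gk, which encodes glycerol kinase, with r = 0.996. Rnf13, Osbp and Spred2 came first for Prkar2b (0.99 each), Slc24a3, Paqr9 and Anapc1 for Prkaca (0.98 each) and Mrpl12, Hspa12b and Ier2 for Adcy4 (0.98 to 0.99). For Adcy3 the first was Dock8 (0.99), for Adcy9 Metap1 (0.99), for Pde4d Zer1 (0.98), for Adcy6 Wdr45b (0.97), for Pde4b Gm37376 (0.96) and for Adcy5 Serhl (0.95). These are the highest of 8071 or 8072 values each over 10 mice that share libraries, and they are given as a description.

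The rest of the pathway was covered by 9 lists with 58 genes, of which 48 were tested. Of the 48, 0 differed at an adjusted p under 0.05 and 1, Adrb3, had an unadjusted p under 0.05, where all genes tested gave 0% and 1.59%. The log2FC was above 0 for 26 and below 0 for 22, with a median of 0.028, and the 95% interval lay within a 2-fold change for 44. Tested, with 0 called in each list, were 2 of 5 other adenylate cyclases, 12 of 13 other phosphodiesterases, all 4 other PKA subunits, 2 of 3 PKA inhibitors, 11 of 15 A-kinase anchoring proteins, 6 of 7 G protein α subunits, both Epac exchange factors and all 6 genes of the CREB family and its coactivators. Too low to be tested were Adcy1, Adcy2, Adcy8, Pde11a, Pkib, Akap3, Akap4, Akap14 and Gnaz, each with at most 16 counts in any mouse, and Akap2 was not found by its symbol.

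By level per kb the leading gene of these lists was Gnas, the stimulatory G protein subunit upstream of the cyclases, at 307 CPM per kb of merged exons. By mean transcript length it was at 1674 CPM per kb, so its level against Prkar2b depends on the length used. By merged exons Prkar1a followed with 68.3 CPM per kb, Akap1, which anchors PKA at mitochondria, with 67.0 and Adrb3 with 49.96. Lower were Pde2a (15.8 CPM per kb), the cAMP-activated exchange factor Rapgef3 (8.63), the CREB coactivator Crtc2 (8.42), the PKA inhibitor Pkig (4.14) and the soluble cyclase Adcy10 (1.23). The log2FC of these genes lay between -0.15 for Prkar1a and 0.14 for Crtc2 apart from Adrb3. Rapgef3 and Pde2a had their highest values in ΔGm15551 replicate 5 (84.0 and 143 CPM).

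Adrb3, the β3-adrenergic receptor upstream of these cyclases, was at 123, 157, 157, 132 and 129 CPM in wild type and at 168, 158, 217, 233 and 213 CPM in ΔGm15551, so that the groups did not overlap, as for 1 of the 48 genes (Adrb3 itself) and 0.32% of all genes tested. Its log2FC was 0.50 (SE 0.14, edgeR unadjusted p = 0.00254, adjusted p = 0.9997), which did not pass the adjusted threshold, while none of the 10 cAMP and PKA genes had an unadjusted p under 0.44.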

How the data were processed

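RNA of iBAT from 10 mice (5 per genotype) was sequenced by the authors in paired-end reads after poly A selection. Reads were filtered with cutadapt and quantified with salmon against the GENCODE M22 transcriptome on GRCm38, or M22 joined with RNAcentral. Tool versions, and whether strand was used, are not given in the sources used here. The authors deposited estimated counts (expected counts) per gene as whole numbers, 1 column per mouse, unscaled, and 0 columns lacked a sample. Where a read matched more than 1 transcript, salmon apportioned it by estimated abundance.

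Differential expression was computed with edgeR 4.0.16 under R 4.3.3 (filterByExpr with minimum count 10 and minimum total count 15, TMM, robust glmQLFit, glmQLFTest with genotype as the only term), adjusted by Benjamini-Hochberg over 13732 genes with a threshold of 0.05. The methods of the study name DESeq2 Wald tests. log2 CPM had a prior count of 2. Depth (9680976 to 15771170 counts per mouse) limits genes with few counts. Each edgeR p-value weighs the difference between genotypes against the spread between mice. Exon lengths and 31-base words came from GENCODE M21 on GRCm38, where 99.5% of gene IDs were found, and promoters from RefSeq. Alternatives were DESeq2 1.42.0, its size factors, library totals, no filter, 1 CPM in 5 mice, limma-voom (limma 3.58.1) with and without quality weights, leaving out each mouse, estimation without the robust option, a replicate block in 6 mice and those mice unblocked, the fit without wild type replicates 5, 6 and 7, a muscle score covariate and other gene lengths. The correction for GC content and length (lowess, span 0.3, statsmodels 0.14.6), the relations within 7 mice and the share of all gene pairs were added after seeing the data. The fit was tested on simulated data.

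The 10 genes, the pathway and marker lists and the tests were chosen with earlier results of these data known. Named were all 10 genes, Gm15551, pathway genes at an adjusted p under 0.05 or, in their absence, at an unadjusted p under 0.05, the gene with the highest level per kb in each pathway list, and up to 3 genes most alike in pattern to each of the 10. Gene records overlapping these were named after their counts were seen.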

Additional observations from a re-analysis of the deposited data

Results flagged for a closer look

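Over the 10 genes, Dixon's ratio was computed in 20 groups of 5 mice to find single outlying mice (critical value 0.71). There was 1, where 1.0 is expected by chance, since about 1 in 20 groups gives one. Pde4b was at 16.6 CPM in wild type replicate 7, while the remaining wild type mice had 9.56 to 10.3 CPM (ratio 0.898). The same library was the shallowest and had the highest summed level of skeletal muscle markers, and their part in the value of Pde4b was not tested.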

How the results depend on the processing

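The number of the 10 genes called was 0 in the main setting and all 22 alternatives, with adjusted p values of 0.964 to 0.999995. The signs of Pde4d and Prkaca did not change in any of them. Reversed log2FC were as follows. With limma-voom they were -0.027 for Adcy9 and 0.012 for Prkar2b, and with quality weights -0.33 for Adcy5, -0.12 for Adcy9, 0.051 for Pde3b and 0.026 for Prkar2b. With the muscle score covariate they were 0.030 for Pde3b and 0.039 for Prkar2b, and with wild type replicates 5, 6 and 7 left out -0.018 for Adcy6. The cause was not tested. Leaving out 1 mouse at a time gave -0.32 to -0.024 for Adcy3, -0.0018 to 0.27 for Adcy4, -0.052 to 0.26 for Adcy5, -0.028 to 0.091 for Adcy6, -0.28 to 0.15 for Adcy9, -0.15 to 0.13 for Pde3b, 0.029 to 0.28 for Pde4b, 0.036 to 0.38 for Pde4d, 0.0076 to 0.17 for Prkaca and -0.17 to 0.11 for Prkar2b. The range for Adrb3 over all alternatives was 0.43 to 0.57.

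Replicate numbers 2, 5 and 7 occur in both groups, and deviations of same-numbered mice correlated at -0.07, 0.05 and -0.39. Same-numbered mice were thus not alike in these deviations. Whether they shared a litter or a processing step was not tested, since such sharing need not give a correlation over all genes. With the replicate block in these 6 mice the log2FC was 0.027 for Adcy3, -0.12 for Adcy4, 0.28 for Pde3b, -0.067 for Pde4b and 0.42 for Prkar2b, and in the same 6 mice unblocked it was -0.11 for Adcy4, 0.31 for Pde3b, -0.087 for Pde4b and 0.40 for Prkar2b. All 10 genes had a 95% interval within a 2-fold change in the main setting, 7 in either fit to these 6 mice and 9 without wild type replicates 5, 6 and 7.

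At an unadjusted p under 0.05 edgeR gave 219 genes over the whole table, and the alternatives 168 to 869, the latter of 30984 genes without a filter. There were 404 without wild type replicate 7, 418 without ΔGm15551 replicate 1, 397 with the block, 552 in the same mice unblocked and 448 with limma-voom and quality weights. The smallest adjusted p of any gene was 0.0615, with the DESeq2 Wald test. Depth limits Adcy5 and Adcy9 most, with 48 and 52 counts in their lowest mouse.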
